A study of Mus musculus with 21 samples.

Results

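The members described here are the 211068 autosomal CpGs listed between positions 3000000 and 5000000 of the mm9 genome build in a bisulfite library of nucleosome-associated DNA from mouse sperm, which lists 15544856 CpGs in all. They were chosen by position alone: the window covers the first 2 Mb of assembled DNA next to the centromere of each of the 19 autosomes, without the first 40 kb of chromosome 9. No autosomal CpG was listed before position 3000000, and the first listed member lay between position 3000023 on chromosome 18 and position 3079792 on chromosome 16, so the label holds as a statement about the assembly. The rest of the autosomes, after position 5000000, held 14908059 listed CpGs and served as the reference.

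The series profiled nucleosomes, histone variants, histone marks, RNA and CpG methylation in mouse sperm and round spermatids, in 21 samples. The data come from 1 of them, a bisulfite-converted library of the DNA that stays in nucleosomes in sperm of the C57BL/6 strain. Per the labels' protocols, the cells were motile sperm obtained by swim-up, and mononucleosomes were released with micrococcal nuclease, which digests unprotected DNA. The sources used here give neither the age nor the number of the mice, there was 1 library and hence no replicate, and the other 20 samples were not analysed here.

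Mouse autosomes carry their centromere at one end. The centromere and the heterochromatin beside it consist of long arrays of satellite repeats that the assembly leaves out, and the first assembled sequence often holds satellite fragments and duplicated segments. In sperm most histones are replaced by protamines. The nucleosomes that stay are found preferentially in CpG-rich DNA that lacks methylation, while most of the genome is heavily methylated.

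Genes with CpG-rich promoters lie within the window, and the letters of a few show what the levels below refer to. Promoter sequences of RefSeq on GRCm38.p6 were placed on the mm9 CpG positions of the same chromosome by the spacing of their CpGs, a method added after the data were seen. The 5 genes printed were likewise chosen after their values were seen: 3 germline or chromatin genes with many unmethylated CpGs, and a pair with fewer and methylated CpGs. Each run gives the 250 bases before the gene's start in the direction of the gene, and capitals mark its CpGs.

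Dnmt3a: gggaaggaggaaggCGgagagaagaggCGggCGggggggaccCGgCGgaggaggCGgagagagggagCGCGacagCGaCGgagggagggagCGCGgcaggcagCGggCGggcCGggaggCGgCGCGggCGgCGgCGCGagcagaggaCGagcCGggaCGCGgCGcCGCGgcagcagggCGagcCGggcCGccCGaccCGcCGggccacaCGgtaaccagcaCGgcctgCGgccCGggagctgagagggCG
Suv39h2: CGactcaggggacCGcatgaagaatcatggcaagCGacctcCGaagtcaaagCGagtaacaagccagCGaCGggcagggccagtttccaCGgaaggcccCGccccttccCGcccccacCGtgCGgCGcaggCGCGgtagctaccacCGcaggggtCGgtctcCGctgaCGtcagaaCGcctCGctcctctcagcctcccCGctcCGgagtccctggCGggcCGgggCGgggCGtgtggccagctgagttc
Tesmin: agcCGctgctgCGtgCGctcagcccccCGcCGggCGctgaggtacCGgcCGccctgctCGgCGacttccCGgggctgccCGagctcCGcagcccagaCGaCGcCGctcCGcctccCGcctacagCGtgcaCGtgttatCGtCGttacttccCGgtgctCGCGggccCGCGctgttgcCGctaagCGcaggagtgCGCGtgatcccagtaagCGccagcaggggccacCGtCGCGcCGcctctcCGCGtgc
Hormad2: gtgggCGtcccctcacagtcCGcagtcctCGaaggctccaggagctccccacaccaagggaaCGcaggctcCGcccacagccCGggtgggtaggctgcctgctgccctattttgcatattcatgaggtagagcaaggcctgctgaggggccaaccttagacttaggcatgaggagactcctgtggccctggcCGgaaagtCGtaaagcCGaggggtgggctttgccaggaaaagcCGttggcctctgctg
Tiam2: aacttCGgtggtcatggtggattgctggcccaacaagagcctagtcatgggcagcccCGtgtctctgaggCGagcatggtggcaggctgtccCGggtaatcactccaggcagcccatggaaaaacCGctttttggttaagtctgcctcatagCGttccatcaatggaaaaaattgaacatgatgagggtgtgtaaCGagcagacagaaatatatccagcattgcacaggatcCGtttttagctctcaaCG

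Dnmt3a encodes a DNA methyltransferase that sets new methylation in male germ cells, and its printed bases cover chr12:3806924-3807158 on mm9, on the plus strand. Of the 289 CpG reads over their 39 listed CpGs, 1.73% were methylated (95% Wilson interval 0.741 to 3.99%). Suv39h2, a histone H3 lysine methyltransferase of pericentric heterochromatin, lay on the minus strand at chr2:3392276-3392507 with a level of 2.36% (0.807 to 6.72%) over 127 reads. Tesmin, a gene expressed in testis, lay at chr19:3389131-3389373 with 38 CpGs and a level of 2.66% (1.41 to 4.98%) over 338 reads. These 3 sequences hold from 27 to 40 CpGs in 250 bases.

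The printed sequences of the pair with fewer CpGs were methylated. Hormad2 encodes a protein of the meiotic chromosome axis, and its 10 CpGs at chr11:4341099-4341329, on the minus strand, had a level of 55.3% (39.7 to 69.9%) over 38 reads. Tiam2 encodes an exchange factor for Rac proteins, and its 9 CpGs at chr17:3396962-3397205 had a level of 89.5% (75.9 to 95.8%) over 38 reads. Intervals cover counting error only, and since neighbouring CpGs share reads and copies of 1 molecule cannot be recognised, they are too narrow.

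The first question was whether DNA beside the centromere was methylated to the same level in the recovered nucleosomes as DNA elsewhere. The level, the share of methylated reads among all reads, was taken here and in the windows over CpGs with up to 19 reads. Over all 19 autosomes it was 69.7% (69.6 to 69.8%) in the first 2 Mb and 73.9% in the rest. Part of that gap was also present in the level expected from CpG density. When each member was given the mean level of CpGs of its own chromosome with the same number of listed CpGs within 100 bp, the expected level was 71.2%, and the observed level differed from it by -1.50 percentage points. That number counts only CpGs with reads, so where reads are few a CpG-dense stretch can be matched to sparser DNA. This limit holds for all expected levels and reads below, and its size was not tested. By chromosome the difference had a median of -1.39 points (SD 4.86 over 19 chromosomes), and 12 of 19 chromosomes lay below their expected level. That median was -3.10 points with no limit on reads and -0.65 points with a limit of 10. The first stretches of 14 chromosomes lay within 3 points of the expected level. The 1175 other 2 Mb stretches of the autosomes, treated the same way, had an SD of 2.32 points.

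The departures came from a few chromosomes rather than from all. The lowest was chromosome 14, with a level of 57.3% against an expected 76.5%, a difference of -19.2 points. Chromosome 3 followed at -7.89 points (75.5% observed, 83.4% expected) and chromosome 7 at -7.13 points (54.7% observed, 61.8% expected). These 3 were the ones that lay under the 5th percentile of the other 2 Mb stretches, which was -4.30 points. The highest differences were 2.77 points on chromosome 5, 1.16 points on chromosome 2 and 1.15 points on chromosome 15, and none passed the 95th percentile of 3.01 points. Without chromosome 14 the SD over chromosomes was 2.75 points and the median -0.93 points. With the next 2 Mb of each chromosome, up to 7 Mb, as the reference, the differences of all chromosomes ran from -5.86 to 2.19 points. Much of the largest departure was thus shared with the adjacent DNA.

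Reads per listed CpG, the measure of how much nucleosomal DNA was recovered at a site, differed little as a whole. Members with up to 19 reads had 3.34 reads per listed CpG and the rest of the autosomes 3.27. At equal local CpG number the ratio of observed to expected reads had a median of 1.01 over chromosomes (SD 0.069), and 14 of 19 chromosomes lay within 5% of the expected reads. The median lay on the other side of 1 when the limit was 10 reads (0.993) or when CpGs inside regions of low methylation were left out (0.996), so no direction is given. Chromosome 14 had the lowest ratio at 0.748, with 2.40 reads per listed CpG against 3.21 expected, followed by chromosome 9 at 0.951 and chromosome 15 at 0.957. The highest ratios, 1.05 on each of chromosomes 7, 1 and 17, were just above the 95th percentile of the other 2 Mb stretches (1.04), as were those of chromosomes 16 and 18, so that 5 of 19 first stretches passed it. With the next 2 Mb of each chromosome as the reference, the ratios of all chromosomes ran from 0.876 to 1.11.

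Listed CpGs were mostly sparser next to the centromere. The first 2 Mb held 5.60 listed CpGs per kb and the rest 6.33. The ratio of the first 2 Mb to the rest of the same chromosome had a median of 0.885 over chromosomes, and 13 of 19 had fewer CpGs per kb than their rest. The range was wide, from 0.140 on chromosome 14, where 1305 CpGs were listed and 17 of 20 steps of 100 kb held any, to 1.29 on chromosome 19 with 9.55 per kb and 1.28 on chromosome 12. The sparser density was shared with the DNA beyond it: against the next 2 Mb the median ratio was 1.02. Only listed CpGs can be counted here, so a CpG that lacks reads and a CpG that is not in the sequence cannot be told apart.

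**Figure D1:**
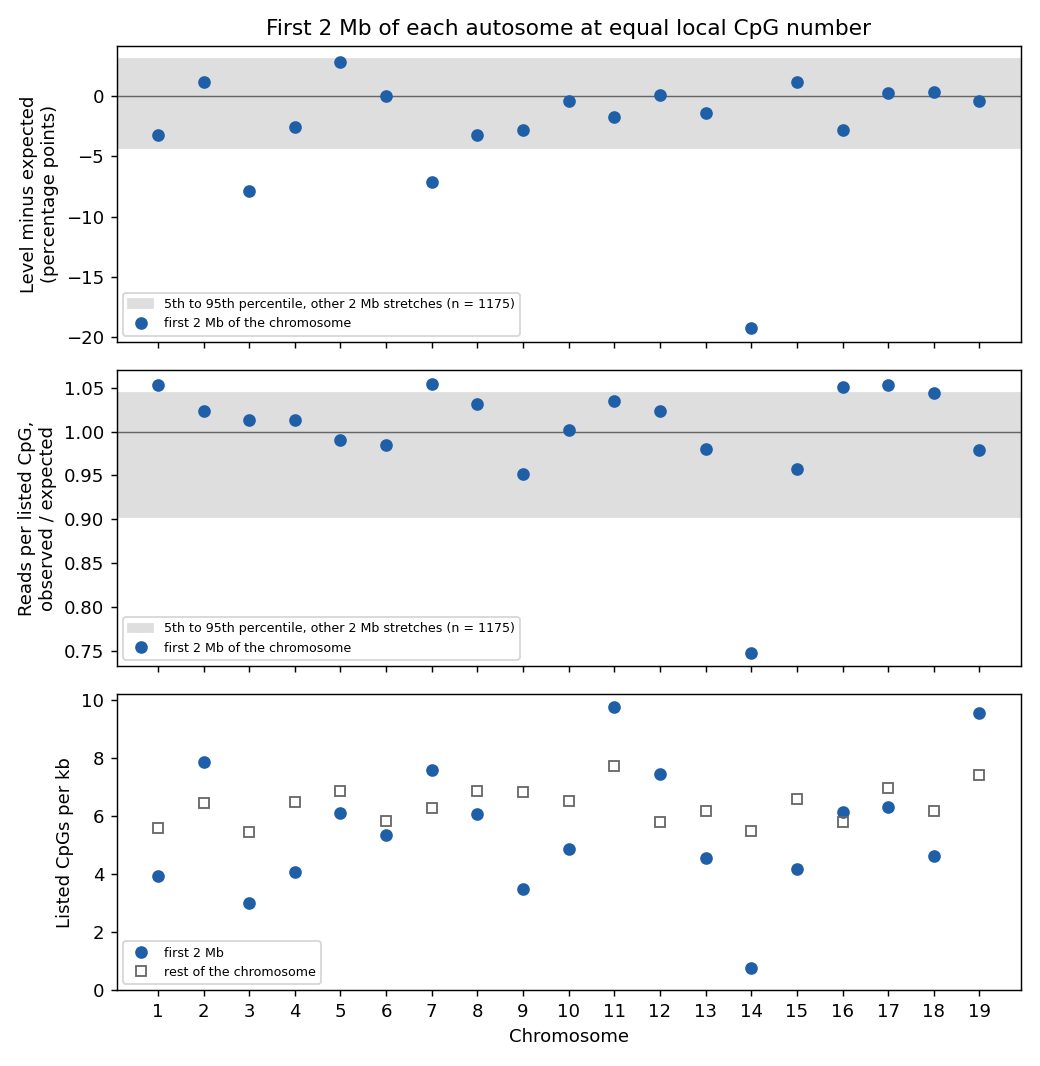
For each autosome, the first 2 Mb are shown as level minus expected level (top, percentage points), ratio of observed to expected reads per listed CpG (middle) and listed CpGs per kb with the rest of the chromosome as open squares (bottom). Grey bands run from the 5th to the 95th percentile of 1175 other 2 Mb stretches. Chromosome 14 lies lowest in all 3 panels, and chromosomes 3 and 7 lie below the band for level.

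Along the chromosomes the pooled departure was largest in the first 100 kb. There the level was 74.9%, which differed from the expected by -6.14 points, and the pooled ratio of reads was 1.08. In steps 2 to 20 the pooled difference lay between -4.66 and 1.21 points and the pooled ratio between 0.977 and 1.07, which overlapped the ranges of the next 20 steps (-5.94 to 2.08 points and 0.972 to 1.04). The pooled values of the first step do not describe a typical chromosome. Over the 17 chromosomes with at least 100 CpGs in that step, the median ratio was 0.974 with a range from 0.744 to 1.78, and the median level difference was -1.36 points with a range from -21.8 to 6.92.

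CpGs with more than 19 reads, which the levels and ratios above leave out, were concentrated at the very start. The first 2 Mb held 1120 of them, 0.531% of the members, against 0.0739% of the rest, and 833 of the 1120 lay in the first 100 kb. That made 12.7% of the CpGs listed in that step. Chromosome 11 alone held 640 of its 940 listed CpGs of the first 100 kb above 19 reads, with 84281 reads on them, and chromosome 4 held 67 of 202. Without chromosome 11 the share of such CpGs in the first 2 Mb was 0.246%.

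**Figure D2:**
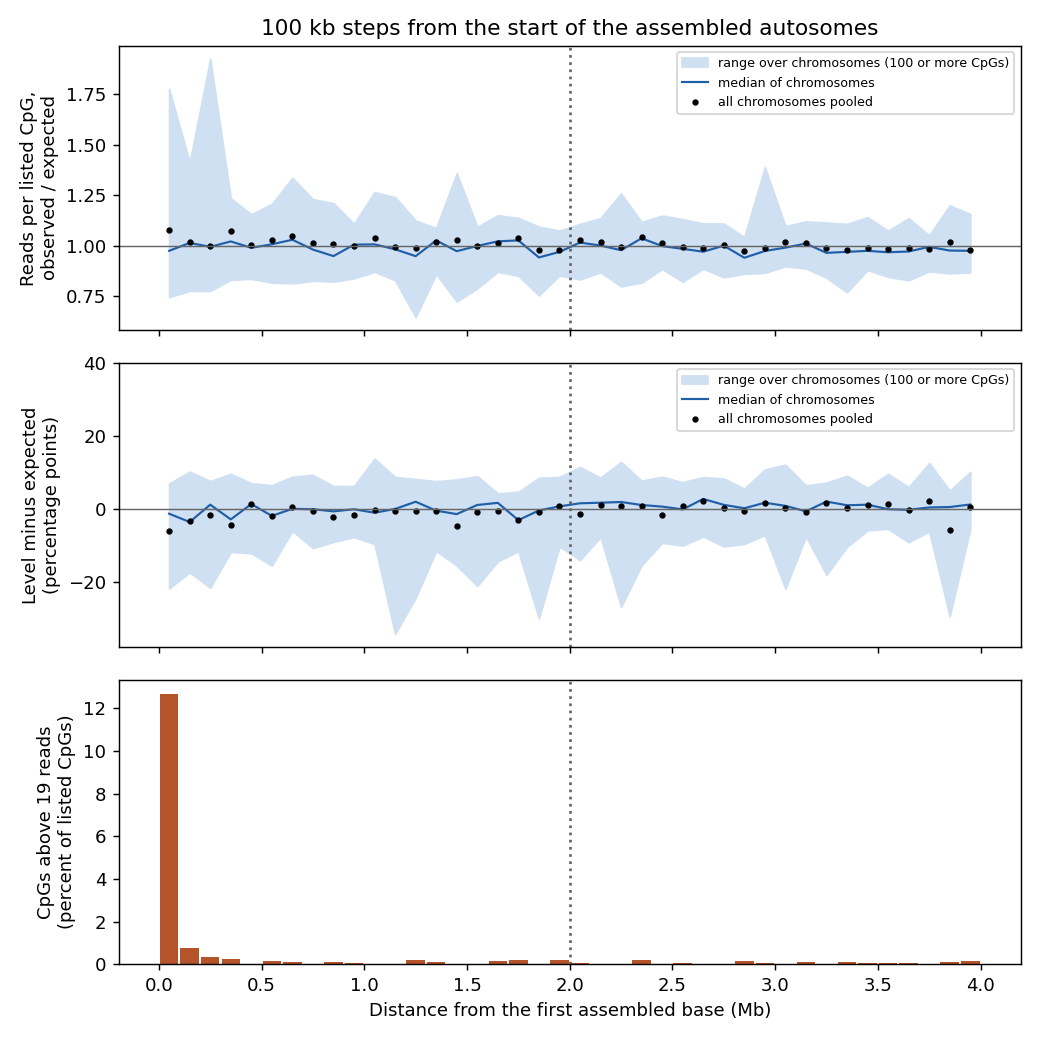
Values in 100 kb steps over the first 4 Mb of assembled DNA, with the distance from the first assembled base in Mb on the horizontal axis and a dotted line at 2 Mb. The upper panels give the ratio of observed to expected reads and the level minus expected level, pooled (black points), as the median of chromosomes (line) and as their range (shading). The lower panel gives the percentage of listed CpGs above 19 reads, which was 12.7% in the first step and below 1% in every later one shown.

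Single chromosomes differed in kind within the first 100 kb. On 5 of them more reads went together with less methylation. Chromosome 3 had 5.28 reads per listed CpG, 1.78 times the expected number, and a level of 62.7%, which differed from the expected by -21.8 points. On chromosome 17 the ratio was 1.54 and the level 61.1%, or -19.9 points. On chromosome 11 the 300 of 940 listed CpGs with up to 19 reads had a ratio of 1.38 and a level of 59.6%, or -20.5 points. Chromosomes 4 (1.31 and -8.89 points) and 18 (1.18 and -8.90 points) showed smaller departures in the same direction. Chromosome 9, counted after the 40 kb left out, had a ratio of 1.48 but a level of 83.2%, which differed from the expected by -2.09 points.

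Other chromosomes had fewer reads than expected at their start. Chromosome 8 had the lowest ratio, 0.744, with 2.26 reads per listed CpG and a level 0.315 points above the expected. On chromosome 7 the ratio was 0.773 and the level 89.9%, or 6.92 points above the expected, and on chromosome 5 they were 0.774 and 2.93 points. On chromosome 14 the ratio was 0.782 and the level 59.1%, or -19.3 points, so that fewer reads and less methylation coincided there. Chromosomes 16 and 19, with 26 and 75 listed CpGs in this step, were too sparse to be counted.

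Among the 380 windows of 100 kb in the first 2 Mb, 365 had at least 100 CpGs and 10 of the 12 sparser ones that held any CpG were on chromosome 14. A ratio of at least 1.1 was found in 44 of the 365 windows (12.1%), against 5.36% of the 23747 windows of all autosomes. A ratio of at most 1/1.1 was found in 72 (19.7%), against 17%. The level was at least 3 points below the expected in 114 windows (31.2%), against 21.5%, and at least 3 points above it in 83 (22.7%), against 27.9%. Both a high ratio and a low level were found in 30 windows (8.22%), against 2.95%. In the first 100 kb, 5 of 17 windows had both, 6 had a high and 6 a low ratio. Of the 348 windows beyond that step, 38 (10.9%) had a high ratio and 107 (30.7%) a low level.

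Windows rich in CpGs were less frequent than elsewhere. Compared with the median window of the same chromosome, 59 windows (16.2%) had at least 1.5 times as many listed CpGs per kb, against 26.8% of all windows. At the sparse end, 111 windows (30.4%) had at most 1/1.5 of the median, close to the 30.3% of all windows. In the first 100 kb no window of 17 was CpG-rich by this measure and 9 were sparse.

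**Figure D3:**
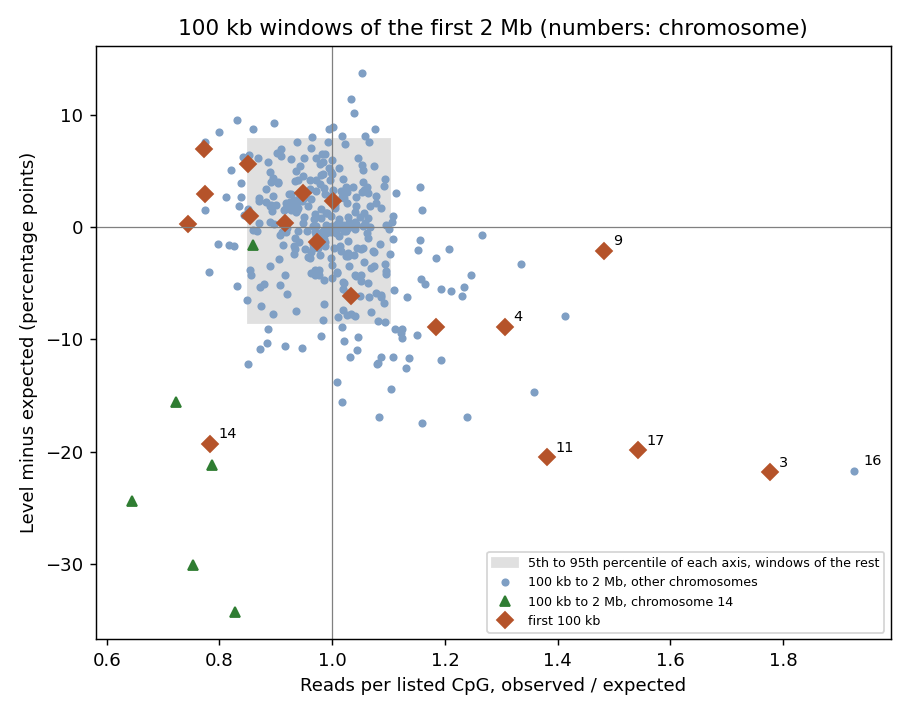
Each point is a 100 kb window of the first 2 Mb with at least 100 CpGs, by the ratio of observed to expected reads per listed CpG (horizontal) and by level minus expected level in percentage points (vertical). Diamonds are the first 100 kb, triangles the later windows of chromosome 14, and the grey box spans the 5th to 95th percentile of each measure in 23382 windows of the rest. Windows of chromosomes 3, 11, 16 and 17 lie at the lower right and those of chromosome 14 at the lower left.

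Steps of 10 kb showed how far the high coverage reached. Ratios and level differences in them are again over CpGs with up to 19 reads. On chromosome 3 the ratio was 3.41, 2.91, 2.27 and 2.66 in the first 4 steps, chr3:3000000-3039999, and within 1% of the expected in the step after. The level of these CpGs with up to 19 reads ranged from 45.9 to 64.8% in the first 4 steps and stayed below the expected in all 10 steps, with differences from -41.1 to -3.66 points. Chromosome 17 had ratios from 1.78 to 3.53 over chr17:3000000-3039999, with levels from 54.9 to 66.2%, and a ratio of 0.786 in the step after. From chr17:3060000 to chr17:3079999 its level was 93.2 to 94.0%, and in the step from chr17:3080000 to chr17:3089999 it was 16.8% over 86 CpGs, a difference of -44.2 points, while all 2080 reads of the 109 CpGs listed there gave 24.9%.

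The windows of chromosomes 9 and 16 gave a similar course of coverage farther in. On chromosome 9 the ratio was 1.73, 1.86, 2.38 and 1.43 in the 4 steps up to chr9:3079999, directly after the excluded stretch, and 0.995 in the next 10 kb, while the level stayed between 81.9 and 83.0%. The window at chr16:3200000-3299999 had the highest ratio of all 365, 1.93, with a level of 65.2% and a difference of -21.7 points. Its first listed CpGs lay in the step from position 3230000, where 22 of 28 had more than 19 reads. The ratio was 2.02 in the step from position 3240000 and 1.09 in the step from position 3280000. On chromosome 11 the high coverage did not end within the window: in its last step, chr11:3090000-3099999, 112 of 116 CpGs had more than 19 reads, and the 17734 reads of that step, the most of the 10 steps, gave a level of 79.2%. Over the 10 steps the level of all reads ranged from 41.1 to 79.2%. The high coverage did not run far past the window. Nearly all of the 649 CpGs above 19 reads in the first 2 Mb of chromosome 11 lay inside it. The CpG-rich region chr11:3101782-3103351, just beyond, had 4.67 reads per listed CpG and no CpG above 19 reads.

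**Figure D4:**
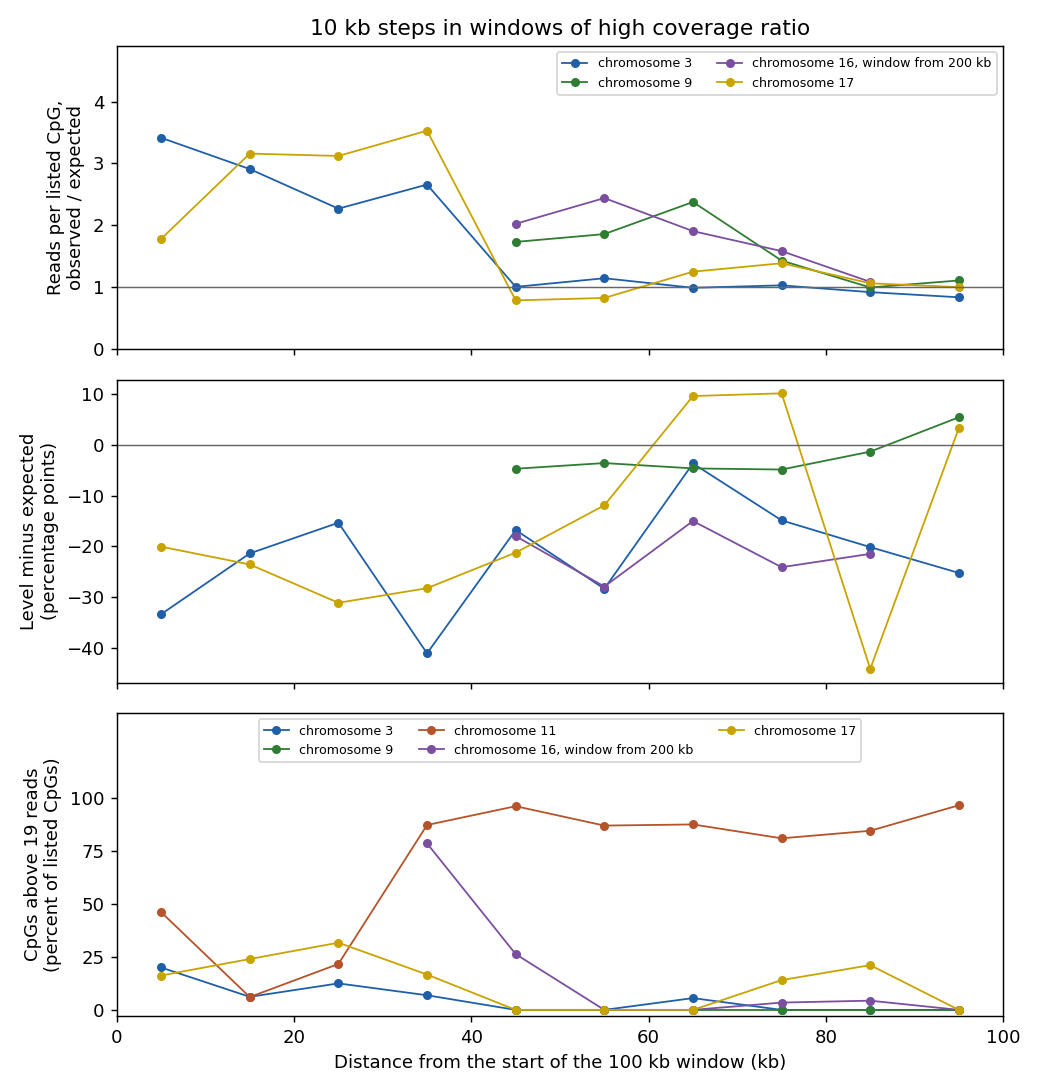
Ratio of observed to expected reads per listed CpG (top) and level minus expected level in percentage points (middle) over CpGs with up to 19 reads, in steps of 10 kb with at least 10 such CpGs, and percentage of listed CpGs above 19 reads (bottom), by distance from the start of the 100 kb window in kb. The window of chromosome 16 starts 200 kb into the assembled sequence, and chromosome 11, where most CpGs exceed 19 reads, is shown in the bottom panel only. The share above 19 reads is 96.6% in the last step of chromosome 11 and 0% in the last step of chromosomes 3, 9 and 17.

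Well-covered CpGs of the first 100 kb were often methylated on part of the reads. Among 279 CpGs with 10 to 19 reads, 53.0% had a level between 20 and 80%, 14.3% a level under 20% and 32.6% a level over 80%. In the remainder of the first 2 Mb the share between was 18.8% of 5225 CpGs, and in the rest of the autosomes 19.2% of 285185. Without chromosome 11 the share in the first 100 kb was 52.0% of 248 CpGs. Above 19 reads, 49.0% of 833 CpGs of the first 100 kb lay between 20 and 80%, or 64.2% of 193 CpGs without chromosome 11. The share was 27.2% of 287 CpGs in the remainder of the first 2 Mb and 15.2% of 11021 CpGs in the rest. Reads of several copies of a sequence placed at 1 position and partial methylation of 1 copy cannot be told apart in these counts, because the table gives no reads or alignment scores.

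The 3 chromosomes of low level differed from each other. On chromosome 3, which held 6033 listed CpGs and no CpG-rich region of low methylation, 14 of 20 windows lay at least 3 points below the expected level, and the difference was -21.8, -17.5, -11.5 and -7.95 points in the first 4 windows. Without the first 100 kb the chromosome's difference was -6.19 points. On chromosome 7, 12 of 20 windows lay at least 3 points below, but the first was above, and 23.5% of its members lay inside regions of low methylation. When CpGs inside such regions were left out here and in the reference, the difference of chromosome 7 was -3.75 points and that of chromosome 3 was -8.50. On chromosome 14, 6 of 7 windows with at least 100 CpGs lay at least 3 points below the expected level and all 7 had a ratio of at most 1/1.1.

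The lowest level differences of all 365 windows were on chromosome 14. They were -34.3 points at chr14:4100000-4199999, -30.1 points at chr14:4800000-4899999 and -24.4 points at chr14:4200000-4299999, with ratios of 0.828, 0.753 and 0.645. Each of these windows held between 102 and 151 listed CpGs, about 1 per kb. The low levels were not even along them. In the first, the 10 kb step from position 4120000 held 42 CpGs at 12.2%. In the second, the steps from 4820000 and 4830000 held 13 and 22 CpGs at 10.7 and 28.8%. In the third, those from 4210000 and 4280000 held 46 and 58 at 10.1 and 18.6%. The other steps of these windows held 1 to 14 listed CpGs each, at levels from 54.5 to 100%. Single-read CpGs made up 43.3% of the members on chromosome 14 and 24.8% of the rest of that chromosome. How far CpGs without reads shifted the expected levels of these windows was not tested. The highest differences lay on other chromosomes: 13.7 points at chr5:4000000-4099999, 11.4 points at chr15:4000000-4099999 and 10.2 points at chr2:3100000-3199999. These 3 windows had levels from 92.8 to 96.2% and ratios from 1.03 to 1.05, and held 705 to 777 CpGs each.

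By local density, over the first 2 Mb as a whole, the lower level was found at intermediate numbers of CpGs. Members with 6 to 9 listed CpGs within 100 bp had a level of 64.9%, against 70.3% in the rest, and those with 10 to 14 had 23.6% against 29.4%. At 15 or more the levels were 3.3 and 3.27%, and at 1 or 2 they were 86.1 and 86.9%. Reads per listed CpG increased with density in the members as in the rest, from 2.86 at 1 or 2 CpGs to 5.54 at 15 or more, against 2.82 and 5.37. The first 100 kb differed from this. There the isolated CpGs, with 1 or 2 within 100 bp, had 3.3 reads each and a level of 76.2%, against 86.9% in the rest. Those with 6 to 9 had 75.2%, above the 70.3% of the rest.

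Regions of low methylation had median levels next to the centromere close to those elsewhere. They were called as runs of CpGs with 5 or more reads and a running level under 50%, and termed CpG-rich from 30 such CpGs. Their levels are over those CpGs, with no upper limit on reads, while their reads per listed CpG are over CpGs with up to 19 reads. The first 2 Mb held 183 CpG-rich regions, 4.86 per Mb, against 3.86 per Mb in the rest, and 349 shorter regions, 9.27 against 8.16 per Mb. The median level of the CpG-rich regions was 2.71% and that of those in the rest 2.84%. More of them were above 10%, 14 of 183 (7.65%) against 4.78% of the rest. They were unevenly spread, with 27 on chromosome 11, 26 on chromosome 19 and 22 on chromosome 7, and none on chromosomes 3 and 14. Chromosome 14 had 2.40 reads per listed CpG, and a call needs 30 CpGs with 5 or more, so low depth limits calls there. Its 10 kb step from position 4430000, for example, held 59 listed CpGs at a level of 16.7%. Of the 183 CpG-rich regions, 2 began in the first 100 kb, against 40 of the 349 shorter ones. That step held 6567 of the 211068 members.

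The longest CpG-rich region, chr5:3340656-3344806, spanned 4151 bp with a level of 2.19% over 1189 reads of 151 CpGs, and 5.36 reads per listed CpG (SD 3.55 over 274 CpGs). It held the placed promoter of Cdk6, a kinase of the cell cycle. The next, chr19:3322370-3326387, held the promoter of Cpt1a, an enzyme of mitochondrial fatty acid import, and had a level of 2.30% and 6.73 reads per listed CpG (SD 3.62 over 202 CpGs). The other three of the 5 longest were chr13:3357351-3361137, chr16:4557662-4561230 and chr16:4878186-4881590, with levels from 1.84 to 3.35%, and the last held the promoter of Ubald1. Among CpGs with up to 19 reads, the highest coverage was at chr6:3132655-3134173, with 10.8 reads per listed CpG over 33 CpGs. A further 24 CpGs there had more than 19 reads, and the 1040 reads of its 52 CpGs with 5 or more reads gave a level of 18.5% (16.2 to 20.9%). With no limit, chr17:3083843-3084951 came first with 24.6 reads per listed CpG and this region second with 18.5, a ranking added after the values were seen. Next under the limit came chr5:3844946-3845962 around the promoter of Lrrd1, with 9.70 reads and 13.1%, and chr17:3325477-3327695, with 9.56 reads and 3.24%.

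Most promoters that could be placed were unmethylated, in the first 2 Mb as in the rest of the autosomes. Of 25748 autosomal genes, 13234 had at least 8 CpGs in the 300 bases from 250 before to 50 after the start. Among these, 11333 were placed at a single position, and 225 of the placed genes lay in the first 2 Mb, on 14 chromosomes. Where several starts of a gene were placed, the one with the most CpGs, then the most reads, was kept. Other starts of the same genes are not in these counts and may differ in level. For the 225 genes the following values hold. Their median level was 1.69%, against 1.82% for the 11108 genes of the rest. A level under 5% was found for 177 of 225 (78.7%), close to the 77.9% of the rest. A level of at least 20% was found for 17 of the 225 (7.56%), against 10.4% of all placed promoters. Of these 17, 15 had 8 to 14 CpGs, among 53 genes with that number (28.3%, against 39.3% in the rest), and none of the 81 genes with 25 or more CpGs was among them. Neighbouring genes that share a promoter also share reads, so these are not independent counts. Placement needs most CpGs of a promoter to have reads, and levels were higher at low depth. Members with 1 read had a level of 82.1% and those with 10 to 19 reads 37.0%. Promoters that were not placed may therefore be more methylated, and the shares hold for placed ones only.

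A few genes known for roles in chromatin or germ cells are named here as examples, chosen after their values were seen and from no list, with levels over the 300 bases and no limit on reads. Kmt5b, a histone H4 lysine methyltransferase, had 2 methylated of 132 reads (1.52%), and its relative Kmt5c had 3 of 42 (7.14%). Morc2a, an ATPase of chromatin silencing, had 0 of 205 reads methylated, which allows a level of up to 1.46%, the value of 3 reads, and Tasor2, related to a silencing factor, had 0 of 100 (up to 3%). For Meig1, a gene needed in spermatid development, 0 of 125 reads were methylated (up to 2.40%). Cenpo, a protein of the centromere complex, had 2 of 88 (2.27%), and Arid1b, a subunit of a chromatin remodeller, had 12 of 312 (3.85%). Pomc, the precursor of several peptide hormones, had 8 of 90 (8.89%).

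Examples among the 17 promoters at 20% or more were chosen in the same way. Over the 300 bases, Hormad2 had a level of 48.8% in 43 reads and Tiam2 of 90.2% in 41. Cacng6, a calcium channel subunit, had 33.9% in 62 reads, and Gstp2, a glutathione transferase, had 28.6% in 28. At these depths the Wilson intervals were wide, from 23.3 to 46.3% for Cacng6 and from 15.3 to 47.1% for Gstp2.

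**Figure D5:**
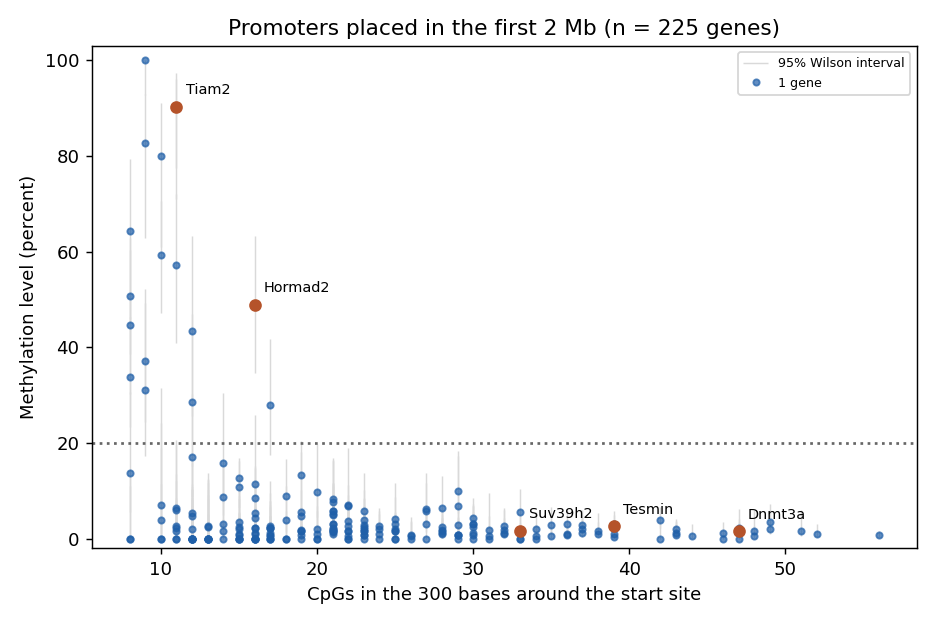
Methylation level of the 225 placed promoters of the first 2 Mb (vertical, percent, with 95% Wilson intervals in grey) by the number of CpGs in the 300 bases around the start site (horizontal). The 5 genes whose sequences are printed are marked in red-brown, and the dotted line is at 20%. All points above the line have 17 CpGs or fewer.

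Other ends of the assembled chromosomes gave a further comparison. In the next 2 Mb, from position 5000000 to 7 Mb, the median level difference was 0.40 points, 8 of 19 chromosomes lay below the expected level, and the median ratio of reads was 0.999. Single chromosomes there had differences from -16.7 to 3.62 points and ratios from 0.868 to 1.06. In the last 2 Mb of the chromosomes the median level difference was -1.14 points, 14 of 19 lay below, and the median ratio was 0.992. The share of CpGs above 19 reads was 0.0639% in the next 2 Mb and 0.145% in the last, against 0.531% in the first.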

How the data were processed

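The deposited table gives, per the file headers, the chromosome, the position and for each CpG a count of its reads and a count of its methylated ones. Both are raw counts by the authors. Per the submitters' processing notes, Bowtie and mm9 were used; the bisulfite alignment settings, the treatment of duplicates and of reads with several placements, and the strand rule are in none of the sources used here. CpGs without reads are not listed, and the table does not state whether positions count from 0 or 1.

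From these counts, levels and reads per listed CpG of chromosomes, steps and windows were computed over CpGs with up to 19 reads. Levels of regions used their CpGs with 5 or more reads, and levels of promoters all listed CpGs, both with no upper limit. Expected values came from CpGs of the same chromosome after position 5000000 that had as many listed CpGs in the 100 bp to either side, counted up to 30. Windows of 100 kb needed 100 such CpGs. Regions of low methylation joined CpGs of 5 or more reads that lay no more than 500 bp apart, where the level of 3 in a row was under 50%; those of 30 or more CpGs were termed CpG-rich and those of 4 to 29 short. Python 3.11.15, numpy 2.4.6, pandas 2.3.3, scipy 1.17.1 and matplotlib 3.10.9 were used. In simulated reads on 436004 CpGs of chromosome 19, a true ratio of 1.3 was recovered as 1.30 and a true difference of -8.72 points as -8.65. These reads were drawn from the same means by local CpG number that the matching uses, and every CpG stayed listed. The simulation therefore checks the calculation only and cannot show what CpGs without reads do to the matching. With 1 library there was no test.

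The members and lists were chosen with earlier results of these data known. The named chromosomes and windows are the 3 highest and 3 lowest by each matched measure, and the named regions are the 5 longest CpG-rich ones and the 3 with most reads per listed CpG. That rule left out genes because no mm9 annotation was used here. Promoters were added later: a RefSeq sequence was placed where 80% or more of its CpGs, at least 8, matched listed positions, with 5 in a row at the same spacing, no further CpG listed within it and no second position on the chromosome. Of 10867 neighbouring pairs of placed sequences, 10866 were in the order of the reference table. Because placement needs most CpGs to be listed, coverage of promoters was not compared; 1 promoter is not reported here. Alternatives were other limits on reads, windows, reference sets and region settings.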

Additional observations from a re-analysis of the deposited data

Results flagged for a closer look

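The first 40 kb of chromosome 9, which the comparisons leave out, held 206 listed CpGs with a median of 933 reads. Their 734545 reads gave a level of 51.9%, and 178 of the 206 CpGs (86.4%) had more than 19 reads. Had this stretch been kept, it would have made up 45.3% of all CpG reads of the first 2 Mb. Its CpGs with up to 19 reads had 8.75 reads each and a level of 62.9%.

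CpGs with more than 19 reads held 21.0% of the CpG reads of the first 2 Mb, 186398 reads at a level of 52.6%, although they were 0.531% of the members. In the rest of the autosomes such CpGs held 16.3% of the reads at a level of 51.0%. The share in the first 2 Mb depended on 5 CpGs at chr12:3100000-3199999 that carried 71274 of these reads, and it was 14.1% without them. No CpGs were taken out of the rest, so this value cannot be set against its 16.3%, and no direction is given. Of the reads in the first 2 Mb of chromosome 11, 55.7% were on CpGs above 19 reads, and on chromosome 12 the share was 58.0% with those 5 CpGs and 0.272% without them. The source of these counts was not tested.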

How the results depend on the processing

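No paired analysis was possible because the values come from 1 library. Of 118 alternative values, 99 kept their direction and stayed within the spread of the main value, or within 1.5 times for counts. This count does not measure robustness. Many of the values leave out 1 chromosome, which can move a median only a little. For the level difference the spread was the SD over chromosomes, 4.86 points to either side, so that -3.10 and -0.60 points both counted as within it. The level of 69.7% was 66.1% with no limit on reads, 72.3% with a limit of 10 reads, 70.2% in the first 1 Mb, 64.3% as a mean over CpGs with 5 or more reads and 69.5% without the first 100 kb. Reads per listed CpG were 4.21 with no limit and 2.78 when CpGs without reads were estimated from a truncated distribution, where the rest gave 2.79. The matched coverage ratio of 1.01 was 0.993 with a limit of 10 reads and 0.996 without CpGs inside regions of low methylation, and the ratio of CpGs per kb was 1.02 against the next 2 Mb instead of 0.885. The level difference of -1.39 points was -3.10 with no limit on reads, -0.65 with a limit of 10, -2.35 against the next 2 Mb and -0.60 without CpGs inside regions of low methylation. Leaving out each chromosome in turn gave 1.01 to 1.02 for the coverage ratio, -1.59 to -0.93 points for the level difference and 0.817 to 0.886 for the ratio of CpGs per kb. The share of CpGs above 19 reads was 1.02% in the first 1 Mb, 0.614% with the start of chromosome 9, 0.325% for a limit of 50 reads, 0.246% without chromosome 11 and 0.140% without the first 100 kb. CpG-rich regions with 15 or more CpGs numbered 7.30 per Mb, against 6.04 in the rest. Past a ratio of 1.2 there were 16 high windows (4.38%, against 0.682% of all windows) and 20 low ones (5.48%, against 3.24%). More than 5 points above the expected level there were 46 windows (12.6%, against 14.5%), and more than 5 points below it 81 (22.2%, against 12.7%). Omitting the first 100 kb or chromosome 11 was chosen after seeing the data. The causes of these shifts were not tested. Depth limits single sites and sparse windows, since 24.2% of the members had 1 read.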
